A study of Arabidopsis thaliana with 16 samples.

Results

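The callose synthases of *Arabidopsis thaliana*, also called glucan synthase-like (GSL) proteins, were followed in 6 seed transcriptomes and in a map of binding by PHERES1 (PHE1), a type I MADS-box transcription factor of the endosperm. The members were chosen by name and are *CALS1*, *CALS2*, *CALS3*, *CALS5*, *CALS7*, *CALS8*, *CALS9*, *CALS10*, *CALS11* (GSL1) and *CALS12*. These 10 genes were all present among the 27206 genes of the expression table. The rule that picks them uses names and no expression value, but it was set with earlier results of these data known.

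Seeds were harvested at 6 days after pollination (DAP) from a L*er* mother carrying *pi-1*, a homeotic mutation that leaves the flower without stamens and so makes it male sterile. The pollen donors were Col plants. In the cross called *phe1 phe2 osd1* the donor carried *osd1* together with a small CRISPR deletion in *phe1* and a T-DNA insertion in *phe2*. In the cross called *osd1* the donor carried *osd1* alone, which yields unreduced pollen and seeds with an extra paternal genome (triploid seeds). In the cross called wt the donor was wild type and the seeds were diploid. The mother was wild type for *PHE1* and *PHE2* in every cross, so that only the paternal copies were mutant. Each cross had 2 libraries, each made from whole seeds pooled over many siliques. PHE1 binding was measured separately, with an antibody against GFP in selfed siliques of a Col line expressing PHE1::PHE1-GFP at 2 DAP, in 2 ChIP replicates that each had an input. In whole seeds and siliques, fewer cells of a type and less RNA per cell cannot be told apart.

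Callose is a beta-1,3-glucan made at the plasma membrane by large multi-pass enzymes that use UDP-glucose. It is laid down in the young cell plate of dividing cells, around plasmodesmata, where it narrows the channel between cells, on sieve plates, in the walls around meiotic and pollen cells, and at wounds. In a young seed the endosperm first divides without making walls and later cellularizes, and callose is a known component of the new endosperm cell walls. Beta-1,3-glucanases remove callose, and plasmodesmata callose-binding (PDCB) proteins bind and stabilize it.

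*CALS12* was the one member with a PHE1 region found in both ChIP replicates near its start, and *CALS8* had a PHE1 peak in replicate 2 alone. The sequence of the shared *CALS12* region and the part of the *CALS8* peak that holds its closest motif match are shown because they are the promoter sequences at which PHE1 was recorded in this family. Both are on the plus strand of TAIR10, which is the coding strand of both genes, and both lie upstream of the annotated start. Capitals mark the stretch closest to a CArG-box, the MADS-box binding motif of an A/T-rich core between CC and GG, and each differs from it by 1 base.
CALS12 chr4:1573069-1573256: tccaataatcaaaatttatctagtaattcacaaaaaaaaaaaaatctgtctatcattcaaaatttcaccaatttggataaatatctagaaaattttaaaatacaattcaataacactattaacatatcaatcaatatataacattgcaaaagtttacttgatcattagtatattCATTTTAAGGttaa
CALS8 chr3:4891726-4892025: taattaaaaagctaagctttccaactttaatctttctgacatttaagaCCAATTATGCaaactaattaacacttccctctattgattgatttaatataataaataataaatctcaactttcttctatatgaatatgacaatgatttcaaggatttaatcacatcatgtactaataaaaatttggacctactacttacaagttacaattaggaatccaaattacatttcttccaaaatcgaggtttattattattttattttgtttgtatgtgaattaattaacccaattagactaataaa

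Neither region held an exact CArG-box on either strand. The paper also reports a more frequent PHE1 motif that lacks the terminal G bases, which was not searched for here. The absence of an exact CArG-box is thus not the absence of a PHE1 motif. The shared *CALS12* region was 80.3% A or T, and its marked stretch began at position -23 relative to the start. In the window that the *CALS12* region occupies relative to its start, an exact CArG-box was present in 2.0% of 26719 genes, and a stretch within 1 base of it in 28.0%. Among all shared PHE1 regions these shares were 11.6% and 65.7%, and among the 319 shared regions of 160 to 220 bp the share within 1 base was 45.5%. For the window of the *CALS8* peak, 4.61% of genes had an exact CArG-box and 60.0% a stretch within 1 base. From 1500 bp upstream to 500 bp downstream of the start, no member held an exact CArG-box, against 13.0% of all genes, and each member held 2 to 5 stretches within 1 base, as 93.3% of all genes held at least 1.

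The *CALS12* region, common to a peak of each replicate, spanned chr4:1573069-1573256 (188 bp), at positions -197 to -10 relative to the annotated start of *CALS12* (AT4G03550). It was the whole of the replicate 1 peak, which was narrower than most peaks of its list (percentile 1.99), and lay within a replicate 2 peak of 333 bp. Only regions centred between 1500 bp upstream and 500 bp downstream of a start were assigned to a gene, and 7.66% of the 26719 annotated genes had a shared region there, so that 1 of 10 members is close to that share. The *CALS8* peak spanned chr3:4891726-4892341 (616 bp), at positions -684 to -69 relative to the start of *CALS8* (AT3G14570). Replicate 2 had more peaks than replicate 1 (4870 and 2818), and 14.8% of genes had a replicate 2 peak in this window. The nearest replicate 1 peak to *CALS8* was 30.72 kb away. The other 8 members had no peak from 3000 bp upstream of the start to 1000 bp beyond the end in either replicate. Their nearest peak of any replicate was 5.62 kb from the start for *CALS1* and 8.07 kb for *CALS11*, and the nearest shared region to *CALS5* was 373.86 kb away. The peak lists give positions without height, so the strength of binding at *CALS12* and *CALS8* cannot be compared.

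**Figure D1:**
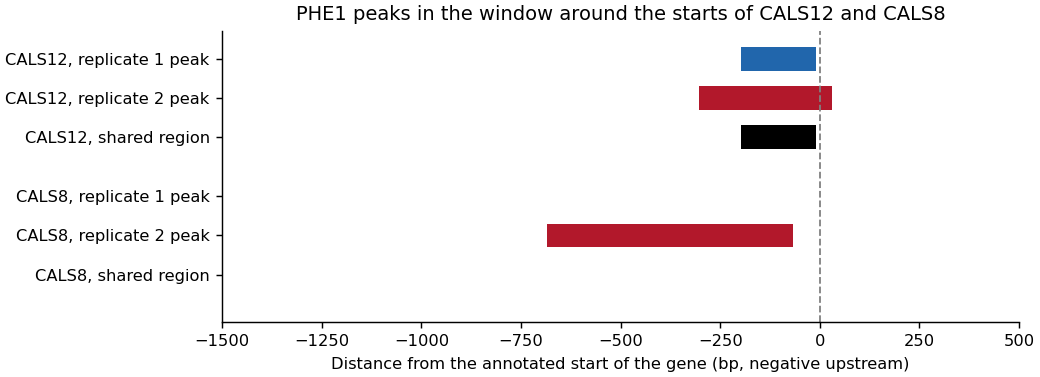
Peaks of PHE1-GFP in each ChIP replicate, and the region shared by both, around CALS12 and CALS8. The horizontal axis is the distance from the annotated start in bp, with negative values upstream. The CALS12 peaks of the replicates overlap over 188 bp just upstream of the start, whereas CALS8 has a 616 bp peak in replicate 2 only.

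The members fall into structural groups that can be read beside their expression. *CALS11* and *CALS12* had 4 and 5 exons in genes of 6.35 and 6.56 kb, while the other 8 had 41 to 51 exons in genes of 10.47 to 15.29 kb. The proteins were nevertheless of similar length, from 1768 residues in CALS11 to 1976 in CALS8. Across the 45 pairs of proteins the median identity was 47.2% and the lowest was 42.1%, between CALS8 and CALS9. CALS1 and CALS2 shared 92.4% of aligned residues, and each shared 77.6% with CALS3. CALS11 and CALS12 shared 65.4%, and CALS9 and CALS10 shared 62.8%. Stretches of 50 transcript bases found more than once in the genome were rare in *CALS1* (15 of 6487) and *CALS2* (11 of 6944). None were found in the other 8 members. Stretches that cross an exon junction could not be found in the genome, which lowers these counts. Between transcripts, *CALS1* shared 1 stretch of 50 bases with another callose synthase, and *CALS2* shared 14. An annotated gene overlapped *CALS1* (AT1G04393), *CALS2* (AT2G08500) and *CALS10* (AT2G36854), the first of them on the strand of *CALS1* and the others on the opposite strand. Whether strand was used in counting is not given in the sources used here, so the values of these 3 genes may include reads of their neighbours.

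**Figure D2:**
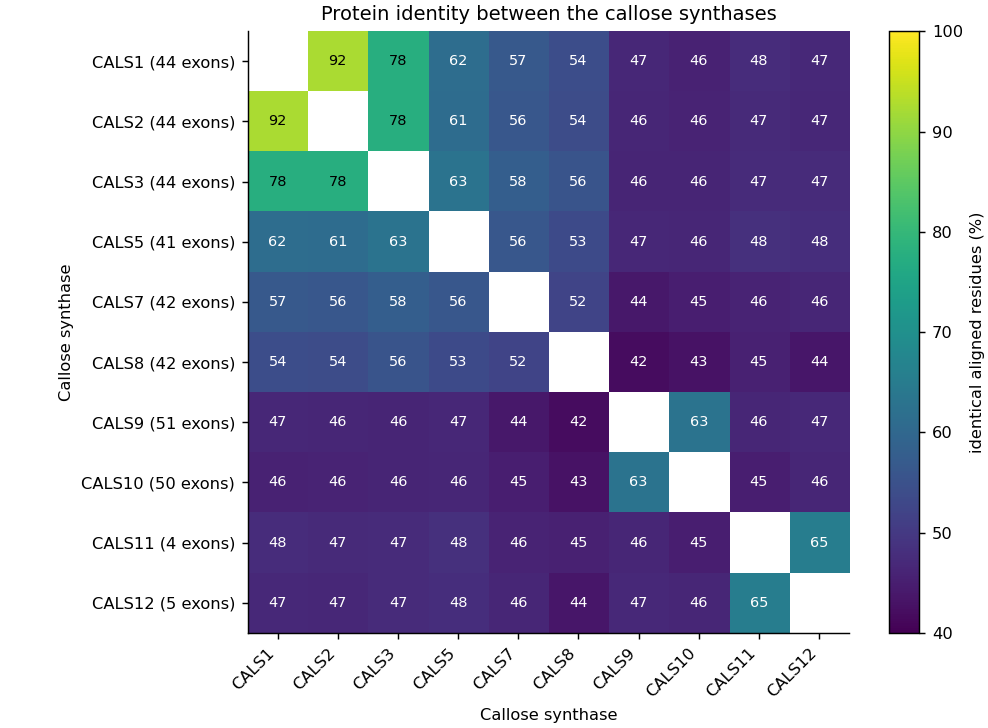
Identity between the proteins of the 10 callose synthases, in percent of aligned residues, with the largest number of exons of any transcript beside each name. CALS1, CALS2 and CALS3 form the closest group, at 77.6% to 92.4%, and CALS11 pairs with CALS12 and CALS9 with CALS10.

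Expression was given as RPKM, the number of reads of a gene scaled by its length and by the mapped reads of the library, which allows levels to be compared between genes. The members fell into 3 tiers. *CALS3*, *CALS2*, *CALS9*, *CALS12* and *CALS10* lay above 20 RPKM in every library, *CALS1*, *CALS8* and *CALS11* lay between 1.54 and 11.7 RPKM, and *CALS7* and *CALS5* stayed under 0.6 RPKM. The highest mean in *phe1 phe2 osd1* seeds belonged to *CALS9* (36.8 ± 7.93 RPKM, SD, n = 2), followed by *CALS3* (33.7 ± 3.79), *CALS10* (31.6 ± 4.83) and *CALS2* (29.6 ± 0.11), and the libraries of each neighbouring pair in this order overlapped. In *osd1* seeds the order was the same, with *CALS9* at 39.5 ± 5.14, *CALS3* at 35.3 ± 6.88, *CALS10* at 33.3 ± 5.34 and *CALS2* at 29.6 ± 1.31 RPKM, again with overlap between neighbours. In wt seeds *CALS3* stood alone at the top with 59.2 ± 4.35 RPKM. *CALS2* (36.7 ± 4.06), *CALS9* (34.8 ± 0.81), *CALS12* (33.4 ± 3.86) and *CALS10* (30.2 ± 2.89) followed in wt seeds and overlapped with their neighbours. The lower tiers did not overlap within any cross, from *CALS1* down to *CALS5*.

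The order of *CALS8* and *CALS11* differed between the crosses. The ratio of *CALS8* to *CALS11* was 2.88 and 4.10 in *phe1 phe2 osd1* seeds, 3.37 and 3.28 in *osd1* seeds, and 0.646 and 0.554 in wt seeds. *CALS8* was thus the higher of the pair in all 4 triploid libraries and the lower in both wt libraries. The ratio of *CALS3* to *CALS9* was 0.858 and 0.995 in *phe1 phe2 osd1* seeds, 0.930 and 0.848 in *osd1* seeds, and 1.76 and 1.64 in wt seeds. These ratios are taken within a library and do not depend on how libraries are scaled.

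**Figure D3:**
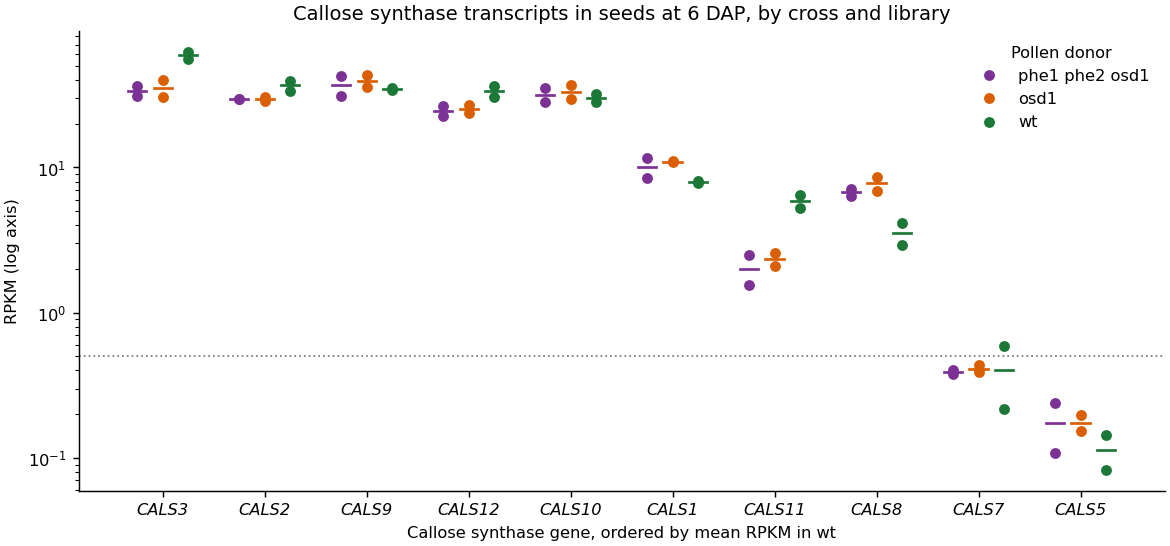
RPKM of the 10 callose synthases in each library on a log axis, with phe1 phe2 osd1 left, osd1 in the middle and wt right for each gene. Points are libraries, bars are means of 2 libraries, and the dotted line is the mean of 0.5 RPKM that a gene had to reach in 1 cross to be tested. CALS3 is highest in wt at 59.2 RPKM, CALS8 and CALS11 change places between triploid and wt seeds, and CALS5 and CALS7 lie near or under the dotted line.

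The summed RPKM of the 10 members was 192 and 159 in *phe1 phe2 osd1* seeds, 201 and 169 in *osd1* seeds, and 225 and 199 in wt seeds. The sums of *phe1 phe2 osd1* seeds lay below both wt sums, and those of *osd1* seeds overlapped with wt. Of this sum, *CALS3* made up 18.97% and 19.44% in *phe1 phe2 osd1* seeds, 20.02% and 18.06% in *osd1* seeds, and 27.67% and 28.14% in wt seeds. *CALS9* and *CALS10* together with *CALS3* and *CALS2* formed most of the pool in every cross, and the share of *CALS9* was 22.1% and 19.53% in *phe1 phe2 osd1* seeds, 21.53% and 21.31% in *osd1* seeds, and 15.71% and 17.15% in wt seeds.

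Differences between crosses were tested for all 20051 genes with a mean of at least 0.5 RPKM in at least 1 cross, by limma on log2(RPKM + 0.5) with Benjamini-Hochberg adjustment, and by the unadjusted rank product. Of the 10 members 8 passed this filter, and *CALS5* and *CALS7* did not. In *osd1* vs. wt, limma called 1 of the 8 higher (*CALS8*) and 2 lower (*CALS3* and *CALS11*), where it called 12.6% of all tested genes higher and 13.4% lower. In *phe1 phe2 osd1* vs. wt it called the same 3 members in the same directions, where it called 12.1% of all genes higher and 12.5% lower. Both comparisons use the same wt libraries and are not independent of each other. The rank product called no member in *osd1* vs. wt, with 8.54% of all genes higher and 8.63% lower, and *CALS11* alone, as lower, in *phe1 phe2 osd1* vs. wt, with 8.51% of genes higher and 9.06% lower. The median log2 fold change of the 8 members was -0.09 in *osd1* vs. wt, beside 0.01 for all tested genes, and -0.12 in *phe1 phe2 osd1* vs. wt, also beside 0.01. An exact permutation test of a single gene was not used, since its smallest two-sided p with 2 libraries per cross is 0.3333.

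**Figure D4:**
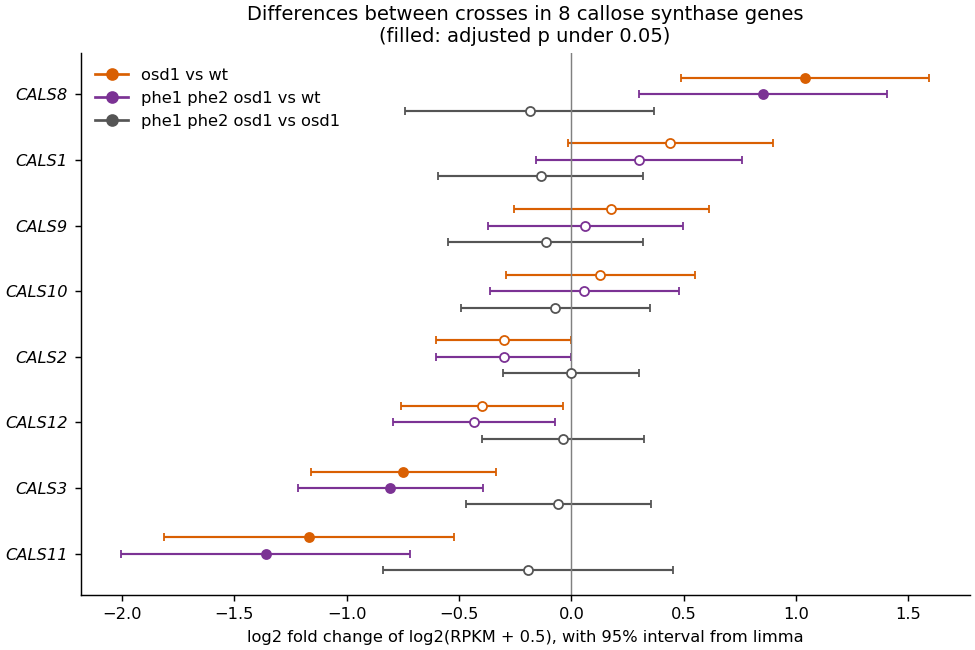
Log2 fold change of the 8 tested callose synthases on the log2(RPKM + 0.5) scale, with 95% intervals from limma, for the 3 comparisons between crosses. Filled points have an adjusted p under 0.05. CALS8 lies above 0 and CALS3 and CALS11 below 0 in both comparisons with wt, and every interval of phe1 phe2 osd1 vs. osd1 includes 0.

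*CALS3* controls plasmodesmal callose, and gain-of-function alleles of it close plasmodesmata in roots. It had 36.4 and 31.0 RPKM in *phe1 phe2 osd1* seeds, 40.2 and 30.4 RPKM in *osd1* seeds, and 62.2 and 56.1 RPKM in wt seeds. All 4 triploid libraries were lower than both wt libraries. Such separation of libraries, here and for the genes below, is a description only. The share of all tested genes that separate in this way was not counted. Limma gave a log2 fold change of -0.75 for *osd1* vs. wt (SE 0.169, 95% interval -1.16 to -0.34, limma adjusted p = 0.0232) and -0.81 in *phe1 phe2 osd1* vs. wt (adjusted p = 0.0188). The adjusted p of *osd1* vs. wt was 0.0805 when no gene was filtered out, 0.0518 without *osd1* replicate 2, 0.174 without wt replicate 1 and 0.108 without wt replicate 2. That of *phe1 phe2 osd1* vs. wt was 0.0729 without the filter, 0.0985 without *phe1 phe2 osd1* replicate 2, 0.158 without wt replicate 1 and 0.0994 without wt replicate 2. The fold change kept its sign in all of these fits, and a cross left with 1 library was assumed to vary like the others.

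*CALS11* and *CALS12* are known to act together in the callose wall that separates the spores of a pollen tetrad. *CALS11* (AT4G04970) had 2.49 and 1.54 RPKM in *phe1 phe2 osd1* seeds, 2.57 and 2.096 RPKM in *osd1* seeds, and 6.45 and 5.28 RPKM in wt seeds. Its wt libraries were above all 4 triploid libraries. Its fold changes were the largest of the 8 tested members with all libraries in the fit, at -1.17 on the log2 scale in *osd1* vs. wt (SE 0.264, 95% interval -1.81 to -0.52, limma adjusted p = 0.0234, rank product permutation p = 0.0519) and -1.36 in *phe1 phe2 osd1* vs. wt (95% interval -2.00 to -0.72, adjusted p = 0.0147, rank product permutation p = 0.0326). In *osd1* vs. wt the adjusted p was 0.076 without the filter, 0.0701 without *osd1* replicate 2, 0.171 without wt replicate 1 and 0.10 without wt replicate 2. For *phe1 phe2 osd1* vs. wt it was 0.0597 without the filter, 0.0652 without *phe1 phe2 osd1* replicate 2, 0.134 without wt replicate 1 and 0.0809 without wt replicate 2. Without *osd1* replicate 2, *CALS8* had the larger change of the pair in *osd1* vs. wt (1.19, against -1.05 for *CALS11*), as it did without wt replicate 1 (1.26, against -1.03). The 6 pollen and anther markers summed to 0.774 to 0.918 RPKM in *phe1 phe2 osd1* seeds, 0.532 to 0.882 RPKM in *osd1* seeds, and 1.98 to 2.23 RPKM in wt seeds, and the 1 of them that was tested, *HAP2*, was called lower in both comparisons with wt. *HAP2* had 0.309 and 0.0974 RPKM in *phe1 phe2 osd1* seeds, 0.177 and 0 RPKM in *osd1* seeds, and 1.17 and 1.31 RPKM in wt seeds. *TIP5;1* overlapped between crosses, with 0.179 and 0.676 RPKM in *phe1 phe2 osd1* seeds, 0.176 and 0.599 RPKM in *osd1* seeds, and 0.189 and 0.350 RPKM in wt seeds. Their part in the difference of *CALS11* was not tested.

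*CALS12*, also known as PMR4, makes the callose deposited at wounds and at sites of fungal attack, and is the member with the PHE1 region printed above. It had 26.5 and 22.7 RPKM in *phe1 phe2 osd1* seeds, 26.8 and 23.6 RPKM in *osd1* seeds, and 36.1 and 30.7 RPKM in wt seeds. The triploid libraries lay below the wt libraries without overlap, a separation whose share among all tested genes was not counted. Limma estimated log2 fold changes of -0.40 for *osd1* vs. wt (95% interval -0.76 to -0.04, limma adjusted p = 0.0996) and -0.43 in *phe1 phe2 osd1* vs. wt (95% interval -0.79 to -0.07, adjusted p = 0.0835), which did not pass the threshold. Between *phe1 phe2 osd1* and *osd1* seeds it was -0.04 (95% interval -0.40 to 0.33).

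*CALS8*, which is known to take part in the closing of plasmodesmata under oxidative stress, had 7.15 and 6.31 RPKM in *phe1 phe2 osd1* seeds, 8.64 and 6.89 RPKM in *osd1* seeds, and 4.17 and 2.92 RPKM in wt seeds. Every triploid library was above both wt libraries. Log2 fold changes were 1.04 for *osd1* vs. wt (SE 0.227, 95% interval 0.49 to 1.59, limma adjusted p = 0.0207) and 0.85 in *phe1 phe2 osd1* vs. wt (95% interval 0.30 to 1.41, adjusted p = 0.0405). In *osd1* vs. wt the adjusted p was 0.0679 without the filter, 0.0699 without *osd1* replicate 1, 0.0657 without wt replicate 1 and 0.131 without wt replicate 2. For *phe1 phe2 osd1* vs. wt it was 0.101 without the filter, 0.152 without *phe1 phe2 osd1* replicate 1, 0.109 without replicate 2, 0.0977 without wt replicate 1 and 0.213 without wt replicate 2. *CALS8* is the member with a PHE1 peak in ChIP replicate 2 alone, and its difference between *phe1 phe2 osd1* and *osd1* was -0.19 (95% interval -0.74 to 0.37).

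*CALS1*, which is known from the cell plate and from plasmodesmal closing under salicylic acid, had 11.7 and 8.41 RPKM in *phe1 phe2 osd1* seeds, 11.1 and 10.8 RPKM in *osd1* seeds, and 8.05 and 7.83 RPKM in wt seeds. Its triploid libraries were above the wt libraries, but the log2 fold change of 0.44 in *osd1* vs. wt was not called (95% interval -0.02 to 0.90, limma adjusted p = 0.138), nor was that of 0.30 in *phe1 phe2 osd1* vs. wt (adjusted p = 0.290). *CALS2*, its closest relative in sequence, had values of the opposite sign. It had 29.7 and 29.5 RPKM in *phe1 phe2 osd1* seeds, 30.6 and 28.7 RPKM in *osd1* seeds, and 39.6 and 33.8 RPKM in wt seeds, and the wt libraries were again apart from the triploid ones. It changed by -0.30 on the log2 scale in both comparisons with wt (limma adjusted p = 0.127 for *osd1* and 0.130 for *phe1 phe2 osd1*), and was not called. The difference between the fold changes of *CALS1* and *CALS2* was not tested.

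*CALS9* and *CALS10* are both needed for male gametophyte development, and *CALS10* (GSL8) also for cytokinesis and for callose at plasmodesmata. *CALS9* had 42.4 and 31.2 RPKM in *phe1 phe2 osd1* seeds, 43.2 and 35.9 RPKM in *osd1* seeds, and 35.3 and 34.2 RPKM in wt seeds. The wt values lay within the range of *phe1 phe2 osd1* seeds and just under that of *osd1* seeds. *CALS10* had 35.03 and 28.2 RPKM in *phe1 phe2 osd1* seeds, 37.0 and 29.5 RPKM in *osd1* seeds, and 32.3 and 28.2 RPKM in wt seeds, with the crosses overlapping. In *osd1* vs. wt the log2 fold change was 0.18 for *CALS9* (95% interval -0.26 to 0.61, limma adjusted p = 0.503) and 0.13 for *CALS10* (95% interval -0.29 to 0.55, adjusted p = 0.621). In *phe1 phe2 osd1* vs. wt both were 0.06, with 95% intervals of -0.37 to 0.50 for *CALS9* and -0.36 to 0.48 for *CALS10*.

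*CALS7*, the callose synthase of sieve plates, had 0.377 and 0.402 RPKM in *phe1 phe2 osd1* seeds, 0.436 and 0.388 RPKM in *osd1* seeds, and 0.594 and 0.217 RPKM in wt seeds. The wt libraries enclosed the range of both other crosses. *CALS5*, the main callose synthase of the microspore wall, had 0.108 and 0.2402 RPKM in *phe1 phe2 osd1* seeds, 0.154 and 0.196 RPKM in *osd1* seeds, and 0.0828 and 0.143 RPKM in wt seeds. At the depth estimated from the spacing of low RPKM values, these levels correspond to 24.9 to 62.6 reads of *CALS7* and 8.33 to 27.2 reads of *CALS5* per library, as an approximation. Both *osd1* libraries of *CALS5* lay above both wt libraries, while those of *phe1 phe2 osd1* overlapped with wt. Fitted without the filter, the log2 fold change in *osd1* vs. wt was 0.14 for *CALS5* (SE 0.121, limma adjusted p = 0.542) and 0.04 for *CALS7* (SE 0.225, adjusted p = 1.0). Of 5 phloem markers 3 stayed under 0.5 RPKM, and 1 of these 3 was at 0 in all libraries. The phloem transporter gene *SUC2* was higher, with 9.69 and 4.06 RPKM in *phe1 phe2 osd1* seeds, 10.7 and 4.91 RPKM in *osd1* seeds, and 9.59 and 8.80 RPKM in wt seeds. Of 6 pollen and anther markers 4 stayed under 0.5 RPKM.

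The comparison of *phe1 phe2 osd1* vs. *osd1* asks what the paternal *phe1* and *phe2* mutations change in triploid seeds. *PHE1* had 49.0 and 49.1 RPKM in *phe1 phe2 osd1* seeds, 200.4 and 169 RPKM in *osd1* seeds, and 2.92 and 3.10 RPKM in wt seeds. *PHE2* had 37.8 and 32.5 RPKM in *phe1 phe2 osd1* seeds, 81.8 and 90.1 RPKM in *osd1* seeds, and 3.08 and 2.98 RPKM in wt seeds. Both genes were lower in *phe1 phe2 osd1* than in *osd1* seeds and above wt. RPKM over a whole gene does not show a small deletion, so these values do not measure loss of function. None of the 8 tested callose synthases was called. Their log2 fold changes lay between -0.19 (*CALS11*) and -0.001 (*CALS2*), and the widest 95% interval was that of *CALS11*, -0.84 to 0.45. The median of the 8 was -0.09, beside 0.01 for all tested genes. Limma called 0.0% of genes higher and 0.0% lower in this comparison. An unadjusted limma p under 0.05 was found for 554 of the 20051 genes, fewer than the threshold alone would give by chance. The rank product called 4.36% higher and 4.17% lower, each also under the share that its threshold of 0.05 would give by chance. No member had an unadjusted limma p under 0.05 here, and the intervals leave room for differences of either sign.

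Several markers of seed tissues moved with the same contrast. Embryo markers (5 genes) summed to 83.4 to 108 RPKM in *phe1 phe2 osd1* seeds, 53.2 to 117 RPKM in *osd1* seeds, and 245 to 256 RPKM in wt seeds, and limma called 3 of 5 lower in *osd1* vs. wt and 2 in *phe1 phe2 osd1* vs. wt. Most of this sum was *LEC1*, with 99.8 and 74.4 RPKM in *phe1 phe2 osd1* seeds, 47.2 and 110.2 RPKM in *osd1* seeds, and 195.2 and 189.6 RPKM in wt seeds. Endosperm markers (6 genes) summed to 61.6 to 64.3 RPKM in *phe1 phe2 osd1* seeds, 59.4 to 82.7 RPKM in *osd1* seeds, and 35.9 to 38.9 RPKM in wt seeds, with 3 called higher and 1 lower in each comparison with wt. *ZOU* formed most of the wt endosperm sum and went against it. It had 13.1 and 5.76 RPKM in *phe1 phe2 osd1* seeds, 9.41 and 14.2 RPKM in *osd1* seeds, and 32.1 and 35.5 RPKM in wt seeds. Seed coat markers (5 genes) summed to 473 to 530 RPKM in *phe1 phe2 osd1* seeds, 519 to 565 RPKM in *osd1* seeds, and 368 to 395 RPKM in wt seeds, with 4 called higher in *osd1* vs. wt and 3 in *phe1 phe2 osd1* vs. wt. The seed coat marker *TT10* was lower in every triploid library (59.9 to 139 RPKM over both triploid crosses) than in wt seeds (167 and 170.4 RPKM). Silique wall markers (3 genes) summed to 21.3 to 42.3 RPKM in *phe1 phe2 osd1* seeds, 28.5 to 49.2 RPKM in *osd1* seeds, and 11.0 to 17.7 RPKM in wt seeds. Nearly all of this sum was *ALC*. It ranged from 20.8 to 42.0 RPKM in *phe1 phe2 osd1*, 28.2 to 48.3 in *osd1* and 10.6 to 17.6 in wt seeds. The other 2 genes stayed under 0.5 RPKM in all libraries. *ALC* was the 1 tested gene of this list and was not called. *CALS3* and *CALS11* thus had the direction of the embryo sum, and also that of *ZOU* and *TT10*. *CALS8* had that of the endosperm and seed coat sums and of *ALC*, opposite to *ZOU* and *TT10*. The part of tissue composition in these differences was not tested.

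Other genes of cytokinesis and callose turnover were read from lists, beside the same shares of all genes given above. Of 10 tested genes of the cell plate and phragmoplast, limma called 8 lower and none higher in *osd1* vs. wt and again in *phe1 phe2 osd1* vs. wt, with median log2 fold changes of -1.41 and -1.17. Without wt replicate 1 or 2 the count in *osd1* vs. wt was 4 or 5. In *phe1 phe2 osd1* vs. wt it was 4 without the filter, 5 without *phe1 phe2 osd1* replicate 1, and 3 without *phe1 phe2 osd1* replicate 2 or either wt replicate. *KN*, the syntaxin KNOLLE that fuses vesicles at the cell plate, had 56.2 and 62.1 RPKM in *phe1 phe2 osd1* seeds, 14.0 and 41.8 RPKM in *osd1* seeds, and 372 and 387 RPKM in wt seeds. In *osd1* vs. wt it differed by -3.94 on the log2 scale (limma adjusted p = 0.00218). It was the 1 gene of this list that the rank product called higher in *phe1 phe2 osd1* vs. *osd1* (log2 fold change 1.27, limma adjusted p = 1.0), whereas limma called none. In *phe1 phe2 osd1* vs. *osd1* the rank product called 4.36% of all tested genes higher, no more than its threshold would give by chance. *HIK*, the phragmoplast kinesin HINKEL, and *PLE*, the microtubule bundling protein PLEIADE, had log2 fold changes of -2.91 and -2.59 in *osd1* vs. wt. The syntaxin partners *KEU* (-0.08) and *SNAP33* (0.12) were the 2 tested genes of the list that were not called.

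Of 5 PDCB proteins, limma called 3 lower and none higher in each comparison with wt. Without the filter it called 2 lower in *phe1 phe2 osd1* vs. wt. The counts of both comparisons also moved when a single library was left out. *PDCB1* had 11.8 and 11.9 RPKM in *phe1 phe2 osd1* seeds, 14.2 and 9.16 RPKM in *osd1* seeds, and 64.6 and 59.1 RPKM in wt seeds, a log2 fold change of -2.39 in *osd1* vs. wt (limma adjusted p = 0.000866). *PDCB2* had 0.878 and 1.01 RPKM in *phe1 phe2 osd1* seeds, 0.861 and 0.441 RPKM in *osd1* seeds, and 19.1 and 15.1 RPKM in wt seeds, a log2 fold change of -3.95 (adjusted p = 0.000447). In both genes every wt library was above every triploid library.

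The beta-1,3-glucanases went in both directions, with 2 of 6 tested genes called higher and 2 lower in *osd1* vs. wt, and 2 higher and 3 lower in *phe1 phe2 osd1* vs. wt. The counts in *osd1* vs. wt were 1 higher and 1 lower without either wt replicate, and those in *phe1 phe2 osd1* vs. wt were 1 higher and 1 lower without any single library of the 4. Without the filter 1 was called higher in each comparison, and without the trend 1 in *phe1 phe2 osd1* vs. wt. *BG1* had 62.1 and 35.5 RPKM in *phe1 phe2 osd1* seeds, 152 and 50.8 RPKM in *osd1* seeds, and 0.874 and 0.807 RPKM in wt seeds. Its log2 fold change of 6.04 in *osd1* vs. wt was the largest among the lists (limma adjusted p = 0.000822). *BG1* was the 1 glucanase that the rank product called lower in *phe1 phe2 osd1* vs. *osd1* (permutation p = 0.0375), where the limma log2 fold change was -0.90 (adjusted p = 1.0) and its libraries overlapped. The rank product called 4.17% of all tested genes lower there, no more than its threshold would give by chance. *BG3* had a log2 fold change of 2.02 in *osd1* vs. wt (limma adjusted p = 0.0267), which was 0.123 without the filter, 0.201 without wt replicate 1 and 0.0928 without wt replicate 2. *PDBG3*, a glucanase of plasmodesmata, fell by 2.18 on the log2 scale (limma adjusted p = 0.000896).

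Sucrose synthases make the UDP-glucose that callose synthases use. Of 3 tested genes 1 was called higher and 2 lower in *osd1* vs. wt, and none higher and 2 lower in *phe1 phe2 osd1* vs. wt. The 1 higher call was *SUS1*. It was lost without the filter, without the trend, without *osd1* replicate 1 and without either wt replicate, and the rank product did not make it. In *phe1 phe2 osd1* vs. wt 1 was called higher after scaling to the same median or with only these crosses in the fit. The lower count was 1 in *osd1* vs. wt without *osd1* replicate 2 or either wt replicate, and 1 in *phe1 phe2 osd1* vs. wt without any single library. *SUS2* had 1.22 and 0.850 RPKM in *phe1 phe2 osd1* seeds, 1.36 and 1.41 RPKM in *osd1* seeds, and 11.2 and 8.21 RPKM in wt seeds (log2 fold change -2.42 in *osd1* vs. wt, limma adjusted p = 0.00151). *SUS6*, which is known from the phloem together with *CALS7*, had a log2 fold change of -1.36 (limma adjusted p = 0.0177, and 0.0539 without *osd1* replicate 2, 0.0742 without wt replicate 1 and 0.0896 without wt replicate 2). Among 7 partners and regulators of callose synthases, limma called only *UGT1*, which encodes a UDP-glucosyltransferase that binds CALS1 at the cell plate. The rank product called 3 of the 7 lower in each comparison with wt. In *osd1* vs. wt limma called 2 lower without the trend or with quantile normalization and 3 without *osd1* replicate 2, and 1 higher without *osd1* replicate 1. In *phe1 phe2 osd1* vs. wt it called 2 lower with quantile normalization or with only these crosses in the fit. *UGT1* had 0.351 and 0.398 RPKM in *phe1 phe2 osd1* seeds, 0.345 and 0.423 RPKM in *osd1* seeds, and 3.79 and 3.05 RPKM in wt seeds. It differed by -2.15 on the log2 scale in *osd1* vs. wt (limma adjusted p = 0.00234), opposite in sign to the value of 0.44 of *CALS1*.

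**Figure D5:**
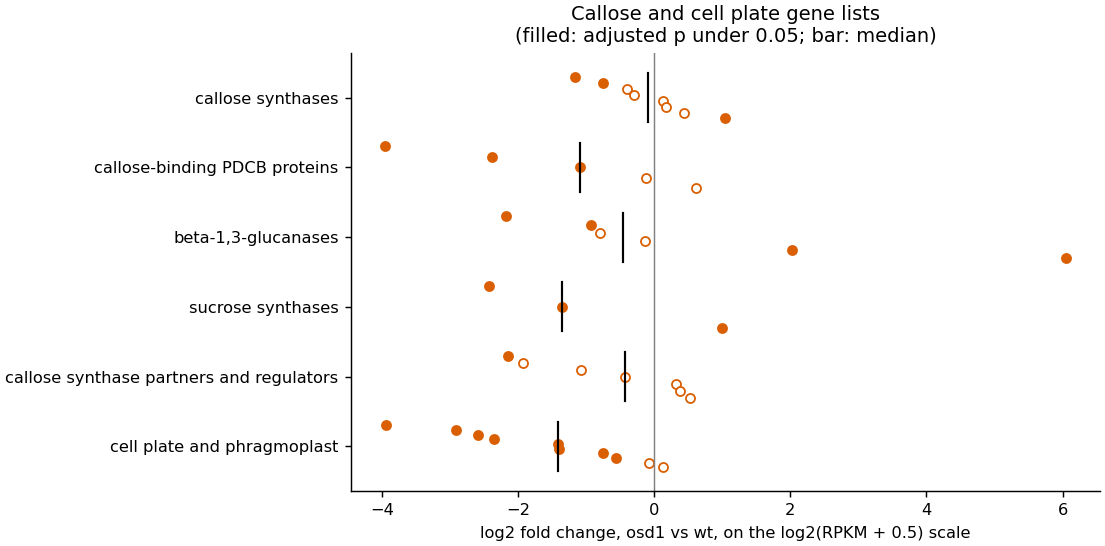
Log2 fold change in osd1 vs. wt, on the log2(RPKM + 0.5) scale, of the tested genes of each list. Points are genes, filled where the limma adjusted p is under 0.05, and the bar is the median of the list. The callose synthases lie around a median of -0.09, and the cell plate and phragmoplast genes around -1.41.

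The pattern of *CALS11*, the member with the largest fold change in *osd1* vs. wt, was shared by many genes over the 6 libraries. The closest were AT3G20200 (r = 0.9993), *LYM1* (AT1G21880, r = 0.9988) and AT4G14920 (r = 0.9987), with 971 of 20050 other tested genes above 0.95. The closest to *CALS3*, the member with the highest mean level, were *XIK* (AT5G20490, r = 0.9994), AT3G03940 (r = 0.9988) and *KTF1* (AT5G04290, r = 0.9984), with 957 genes above 0.95. These r values are Pearson correlations of log2(RPKM + 0.5) over 6 libraries that fall into triploid and wt crosses, and they serve as a description only.

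Of the 2 callose synthase genes outside the chosen members, *CALS6* had 4.12 and 3.52 RPKM in *phe1 phe2 osd1* seeds, 5.18 and 3.48 RPKM in *osd1* seeds, and 2.59 and 2.21 RPKM in wt seeds, and its log2 fold change of 0.72 in *osd1* vs. wt was not called (limma adjusted p = 0.082). *CALS4* stayed at or under 0.181 RPKM and was listed at 0 in 3 libraries.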

How the data were processed

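RNA-seq values were used as deposited, in RPKM. The authors had mapped each seed library with TopHat 2.1.0 to TAIR10, masked for rRNA genes, and obtained RPKM from GFOLD. The annotation and strand setting used in counting are not given in the sources used here. The deposited peak lists hold peak positions, called by the authors with MACS2 2.1.1 in each ChIP replicate against its input after mapping of unique reads with Bowtie 1.2.2. All 6 sample columns were used.

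Members and gene lists were chosen with earlier results of these data known. Beyond the members, the text names at most 3 genes per list, those with the largest change among genes called by both tests in *osd1* vs. wt, with *PHE1*, *PHE2* and the 3 genes most correlated with *CALS11* and with *CALS3*. *KEU*, *SNAP33*, *SUS1*, *HAP2*, *TIP5;1*, *SUC2*, *TT10*, *ZOU*, *LEC1*, *ALC* and the 2 callose synthases outside the members were added after their values were seen. Genes were tested at a mean of at least 0.5 RPKM in at least 1 cross, with limma 3.58.1 (R 4.3.3, eBayes with trend, all 6 libraries) on log2(RPKM + 0.5) and Benjamini-Hochberg adjustment. Fold changes on this scale understate those of low genes. The rank product, taken across all 4 replicate pairs after zeros were replaced by 0.0001, with a null from 100 permutations of each library and an unadjusted p under 0.05, follows the study's methods but was coded anew in Python 3.11.15, and its minimum number of reads was replaced by the RPKM filter. Both were run on simulated data with planted changes larger than those of the members and the same spread for every gene. That run does not show how they perform at the changes and spreads seen here.

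Peaks overlapping by at least 1 bp were taken as shared. Gene models, protein translations and sequences came from RefSeq TAIR10.1, and proteins were aligned with mafft 7.526. Of the table's genes, 26719 were in this annotation. CArG-boxes were searched on both strands.

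The steps between low RPKM values put the depth of the libraries at 16.1 to 18.1 M reads. Only 44.2 to 48.2% of low values then fell within 0.05 of a whole read number (10% by chance), which was too few to recover counts. The replicates of a cross are separate biological samples per the study's methods. Alternatives were the pseudocount, the filter, the scaling, the samples in the fit, a replicate block, the trend, leaving out libraries, and the peak overlap, width and window. Endosperm H3K27me3, H3 and input samples were not analysed here.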

Additional observations from a re-analysis of the deposited data

How the results depend on the processing

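With no filter on low values, limma called 0 members in *osd1* vs. wt and 0 in *phe1 phe2 osd1* vs. wt, against 3 in each, and 3477 and 3189 genes in all, against 5206 and 4942. The rank product called 1 member (*CALS11*) in *osd1* vs. wt, against 0, with a minimum mean of 1 RPKM or with 0.1 or 0.5 added to every value, and 0 in *phe1 phe2 osd1* vs. wt, against 1, after Benjamini-Hochberg adjustment. The cause was not tested. Leaving out 1 library in turn, limma called 0 to 2 members in each comparison with wt and the rank product 0 to 1 in *phe1 phe2 osd1* vs. wt. Leaving out a ChIP replicate gave 1 to 2 members with a PHE1 peak in the window (*CALS8* being the second, without replicate 1), and keeping only peaks wider than the median of their list gave 0, since the *CALS12* peaks are narrow.

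*CALS3*, *CALS8* and *CALS11* kept their direction in both comparisons with wt under all 13 alternatives, with log2 fold changes in *osd1* vs. wt of -0.95 to -0.55, 0.82 to 1.26 and -1.30 to -1.03. Signs turned only when 1 library was left out and only where no call was made: *CALS9* ranged from -0.16 to 0.28 and *CALS10* from -0.10 to 0.21 in *phe1 phe2 osd1* vs. wt, and *CALS10* from -0.033 to 0.29 in *osd1* vs. wt. In *phe1 phe2 osd1* vs. *osd1* the ranges were -0.36 to 0.088 for *CALS1*, -0.045 to 0.043 for *CALS2*, -0.26 to 0.14 for *CALS3*, -0.33 to 0.10 for *CALS9*, -0.23 to 0.091 for *CALS10*, -0.47 to 0.082 for *CALS11* and -0.14 to 0.073 for *CALS12*. In this comparison limma without the filter called 23 genes higher and 21 lower, none of them a member. Genes were also called without *osd1* replicate 2, which leaves 1 *osd1* library, and again none was a member.

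The replicate block raised the count of members called by limma to 4 in both comparisons with wt by adding *CALS12* (adjusted p = 0.0462 in *osd1* vs. wt and 0.0387 in *phe1 phe2 osd1* vs. wt). The labels do not say that replicate numbers mark a shared day or batch, and deviations of same-numbered libraries correlated at 0.174 between *phe1 phe2 osd1* and *osd1*, -0.0114 between *phe1 phe2 osd1* and wt, and -0.00402 between *osd1* and wt. Precision is limited by 2 libraries per cross, and for *CALS5* and *CALS7* by few reads.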
